A study of Mus musculus with 2 samples.

Results

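The genes of the doublecortin and LIS1 machinery were examined in embryonic mouse forebrain: Dcx, Dclk1, Dclk2, Pafah1b1 (which encodes LIS1), Pafah1b2, Pafah1b3, Ndel1, Dync1h1, Ywhae and Cdk5. They are defined by name, with no threshold on a measured value, though the set was drawn up with earlier results of these data known, and all 10 were found among the 43346 Ensembl genes of the deposited tables, of which 21474 are protein-coding. The tissue was whole forebrain of C57BL/6NCrl mice at embryonic day 11.5, with no transgene, mutation or treatment named in the labels. A single group of 2 total RNA libraries was made, each from its own pool of male and female embryos. Replicate 1 held 109 embryos and replicate 2 held 88, and 10 ng of RNA longer than 200 nucleotides entered each library. No embryo can be followed within a pool, and there was no other age, region or genotype, so no test between conditions exists. The tables gave 23165259 and 33597027 expected counts on annotated genes. Levels are given as TPM, a length-scaled transcript abundance that sums to 1000000 over all entries of a library, spike-in RNAs included. Differences between the libraries are given as a log2 ratio of scaled read counts, replicate 2 over replicate 1.

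Newborn neurons leave the ventricular wall by extending a leading process and then pulling the nucleus along microtubules. Doublecortin and its relatives bind and stabilise those microtubules, while the minus-end motor cytoplasmic dynein, regulated by LIS1 and NDEL1, draws the nucleus and centrosome forward. The kinase CDK5 phosphorylates both doublecortin and NDEL1, the 14-3-3 protein encoded by Ywhae binds phosphorylated NDEL1, and loss of DCX or LIS1 in people smooths the folds of the cortex.

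The forms of Dclk1 are shown first because the most abundant of them lacks the kinase. Dclk1 (ENSMUSG00000027797, GRCm38 chr3:55242364-55539068, plus strand) encodes doublecortin-like kinase 1, with doublecortin domains before a kinase domain. Dclk1-201, the full-length form, and Dclk1-203, the doublecortin-only form, share their first 1035 coding bases. They then part at an exon junction, after which Dclk1-203 has 54 more coding bases and Dclk1-201 has 1233. The 60 coding bases around the branch (bases 1006 to 1065 of each, coding exons, GENCODE M21, plus strand, spanning chr3:55463066-55477834 in Dclk1-201 and chr3:55463066-55466602 in Dclk1-203) are printed with the bases after the branch in capitals.
Dclk1-201: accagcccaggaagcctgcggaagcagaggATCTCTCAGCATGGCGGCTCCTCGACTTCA
Dclk1-203: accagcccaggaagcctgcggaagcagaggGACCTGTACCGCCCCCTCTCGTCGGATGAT
The third form, Dclk1-202, encodes the kinase without doublecortin domains and starts inside the gene. It has 93 coding bases that are not in Dclk1-201 and 1173 that it shares with Dclk1-201. The first 60 coding bases of each are printed with the start codon in capitals (chr3:55247151-55247210 for Dclk1-201, and chr3:55462064-55463041 across 1 exon junction for Dclk1-202).
Dclk1-201 start: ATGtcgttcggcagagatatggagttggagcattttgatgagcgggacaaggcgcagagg
Dclk1-202 start: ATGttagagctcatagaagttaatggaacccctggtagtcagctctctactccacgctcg

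Dcx (ENSMUSG00000031285, chrX:143855842-143933311, minus strand) encodes doublecortin, the microtubule-associated protein of migrating neurons. Its coding forms differ by very little, which is why they are shown side by side. Relative to Dcx-201, Dcx-203 lacked 3 coding bases and Dcx-204 lacked 18, and neither had any base of its own. The stretch that holds all these differences runs from coding base 908 in each form and lies on the minus strand of chrX:143863584-143875793 across 2 exon junctions. Capitals mark the 15-base and 3-base stretches that are missing from at least 1 of the forms.
Dcx-201: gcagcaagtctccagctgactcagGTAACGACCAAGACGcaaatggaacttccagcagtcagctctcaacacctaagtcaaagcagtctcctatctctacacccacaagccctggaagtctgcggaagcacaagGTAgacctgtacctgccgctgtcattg
Dcx-203: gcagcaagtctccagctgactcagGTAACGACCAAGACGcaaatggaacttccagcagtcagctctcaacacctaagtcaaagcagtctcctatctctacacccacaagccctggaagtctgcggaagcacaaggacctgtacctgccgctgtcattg
Dcx-204: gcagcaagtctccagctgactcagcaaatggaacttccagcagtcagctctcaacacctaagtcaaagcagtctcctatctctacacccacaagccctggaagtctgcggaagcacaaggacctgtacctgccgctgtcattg
The 10 bases gacctgtacc follow the second stretch in Dcx-201 and stand in every Dcx form shown. They are also the first 10 after the branch of Dclk1-203. Over their whole coding sequences, Dcx-203 and Dclk1-203 had 71.7% identical bases among 1064 aligned ones.

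Across the 10 genes the levels ran from about the middle of the detected transcriptome to its upper end. Ywhae stood highest at 1154 TPM in replicate 1 and 1240 in replicate 2, above 99.6% of detected protein-coding genes. Cdk5 stood lowest at 28.4 and 25.4 TPM, above 57.3% of them. All 10 reached 1 TPM in both libraries, a level that 58.6% of protein-coding genes reached, and all 10 reached 20 TPM, which 29.1% did. The median of the 10 was 66.4 TPM, beside 20.6 TPM over the 12581 protein-coding genes detected at 1 TPM in both libraries. In bulk tissue a level does not separate the number of cells that carry a transcript from the amount in each cell, and these cannot be told apart here.

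**Figure D1:**
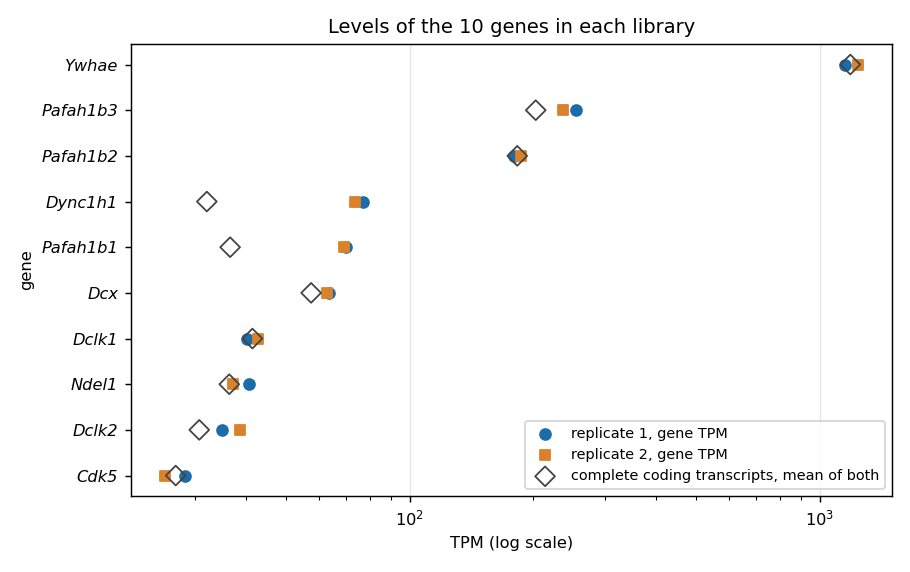
TPM of each gene in replicate 1 (circles) and replicate 2 (squares) on a log axis, with the mean TPM of its complete coding transcripts alone as open diamonds. Ywhae stands at 1154 and 1240 TPM and Cdk5 at 28.4 and 25.4; the diamonds of Dync1h1 and Pafah1b1 lie well to the left of their gene totals.

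The tissue label was checked against marker genes, whose lists were likewise chosen with earlier results known. All 5 forebrain markers were detected (13.5 to 154 TPM), while 1 of 7 hindbrain and trunk markers was (Gbx2, 5.38 and 3.93 TPM). En1 measured 0.91 and 0.86 TPM from 35 and 48 reads, and the 5 Hox genes stayed at or below 0.16 TPM. All 6 progenitor markers and all 6 newborn neuron markers were detected, the latter summing to 915 and 852 TPM. Other tissue was present: all 5 markers of primitive red cells (summed 12764 and 13820 TPM), all 5 of mesenchyme (554 and 571), all 4 of endothelium (67.8 and 64.6) and all 4 of microglia (48.5 and 45.0) were detected. Of the sensory ganglion markers reported here, Pou4f1 measured 2.98 and 1.62 TPM, Sox10 1.05 and 0.97 TPM and Prph 0.16 and 0.27 TPM. The part of these other cells in the levels below was not tested.

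Among the microtubule-binding members, Dcx was the most abundant. Dcx measured 63.7 TPM in replicate 1 and 62.7 in replicate 2 (63.2 ± 0.707, SD, n = 2). Dclk1 measured 40.0 and 42.7 TPM (41.4 ± 1.86). Dclk2 (ENSMUSG00000028078, chr3:86786151-86920852, minus strand), a second doublecortin-like kinase, measured 34.9 and 38.7 TPM (36.8 ± 2.65). Both libraries thus placed Dcx above Dclk1 and Dclk1 above Dclk2, but the lower Dclk1 value and the higher Dclk2 value lay closer together than the SD of either gene. Dclk1 stood at 0.654 ± 0.0367 of the Dcx level and Dclk2 at 0.582 ± 0.0484. Dcx supplied 44.7% ± 1.70 of the summed TPM of the 3 genes (138.7 and 144.1). Relative to Tubb3, the neuronal beta-tubulin that marks new neurons, the Dcx level was 0.134 ± 0.0120.

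More distant genes with doublecortin domains were near the floor. Of the 6 listed (Dclk3, Dcdc2a, Dcdc2b, Dcdc2c, Rp1 and Rp1l1), Dcdc2b alone was detected in both libraries, at 1.99 and 2.07 TPM from 14 and 20 reads. It shares 18 exon bases on the other strand with Tmem234 at 151 and 147 TPM, so these few reads are uncertain. Dclk3 stood at 0.23 and 0.13 TPM, and Rp1 and Rp1l1, genes of photoreceptors, had no read in either library. By contrast all 7 listed partners of doublecortin were detected. Ap1m1, a subunit of the clathrin adaptor AP-1, measured 149 and 135 TPM. Usp9x, a deubiquitinase that binds doublecortin, measured 51.3 and 60.8 TPM. The JNK scaffolds Mapk8ip1 and Mapk8ip2 measured 32.8 and 28.4 TPM and 20.6 and 21.7 TPM.

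The doublecortin-only transcript dominated Dclk1. Dclk1-203 measured 27.2 TPM in replicate 1 and 28.8 in replicate 2, which was 67.9% and 67.4% of the gene. Full-length Dclk1-201 measured 10.1 and 11.5 TPM, 25.2% and 27.0% of the gene. Kinase-only Dclk1-202 measured 2.76 and 2.36 TPM, 6.9% and 5.5% of the gene. The order of the 3 forms was the same in both libraries and their ranges did not overlap. Dclk1-203 exceeded Dclk1-201 by 2.59 ± 0.142 times and Dclk1-202 by 11.0 ± 1.66 times. Put by function, 32.3% ± 0.341 of Dclk1 TPM came from transcripts that encode the kinase domain. Expected counts, which are not divided by length, gave the same order, with Dclk1-203 at 62.4% and 61.7%. The deposited tables hold 3 of the 15 Dclk1 transcripts of GENCODE M21, so reads of the others could not be told from these. By GENCODE M21, exons of Dclk1 share bases with the opposite-strand genes Gm21954 (27 bases, at 0 TPM) and Gm42609 (87), and those of Dync1h1 with Gm17111 (48 bases, 0.21 and 0.43 TPM) and Gm35558 (403). The exons of the other 8 members overlapped no other gene.

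Transcripts from the first start of Dclk1 held 93.8% ± 0.980 of its TPM, and those from the internal start held the rest. The 250 bases before each start in RefSeq (GRCm38.p6, plus strand, chr3:55242114-55242363 and chr3:55461478-55461727) are shown because these starts differ so widely in use. They lie 219.4 kb apart, and the transcripts of the tables begin 162 bases past the first and 30 past the internal one. With them is shown the window before Dcx (minus strand, chrX:143933312-143933469, 158 bases that end where the longest Dcx transcript begins). Capitals mark each CG dinucleotide.
Dclk1 first start: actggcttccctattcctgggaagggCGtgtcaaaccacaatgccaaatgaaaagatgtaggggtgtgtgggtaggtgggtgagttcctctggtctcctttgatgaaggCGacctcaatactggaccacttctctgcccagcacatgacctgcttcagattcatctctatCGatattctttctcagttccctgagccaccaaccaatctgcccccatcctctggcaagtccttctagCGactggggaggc
Dclk1 internal start: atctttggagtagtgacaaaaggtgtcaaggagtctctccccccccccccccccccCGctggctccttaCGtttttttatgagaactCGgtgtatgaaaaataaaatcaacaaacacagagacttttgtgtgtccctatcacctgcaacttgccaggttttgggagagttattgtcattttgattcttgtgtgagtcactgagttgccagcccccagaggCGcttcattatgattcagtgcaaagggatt
Dcx: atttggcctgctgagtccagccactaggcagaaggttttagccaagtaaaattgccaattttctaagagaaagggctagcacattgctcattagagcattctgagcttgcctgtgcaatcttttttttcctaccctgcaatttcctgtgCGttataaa
The number of CG in the 3 windows was 4, 4 and 1.

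The members differed widely in this property when compared over 300 bases (250 before and 50 after each RefSeq start, 13 promoters of 8 members). Dcx had 3 CG dinucleotides in each of its promoters, and 23.3% of all 32851 mouse promoters of that length had fewer. Dclk1 had 5 at its first start and 6 at its internal start. Dclk2 had 27, Dync1h1 30, Ndel1 25, Pafah1b1 27 and Ywhae 36, against a median of 7 over all promoters. The Pafah1b1 window lies at the start of a minor form, Pafah1b1-202 (4.14% and 5.60% of the gene's TPM). It does not hold the start of Pafah1b1-201 (52.6% and 42.4%). Pafah1b2 had 4 promoters with 5, 19, 28 and 45. Corrected for base composition, the ratio of observed to expected CG was 0.20 and 0.22 for Dcx and 0.24 and 0.32 for Dclk1, beside 0.76 to 1.03 for Dclk2, Dync1h1, Ndel1, Pafah1b1 and Ywhae. The median over all promoters was 0.384. Dcx and Dclk1 were thus the matched members with no promoter above 6 CG, while Dclk2, whose level came close to that of Dclk1, had a promoter rich in it.

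5 short motifs were searched in the same 300 bases on both strands. TATAAA, the letters of the TATA box, stood in both Dcx promoters and in that of Ndel1, and 13.6% of all promoters hold it. The Ndel1 match lay on the opposite strand, 240 bases before the start. In Dcx it began 98 bases before one RefSeq start and 193 before the other, so the same site was counted in both windows, and it makes up the last letters printed above. CCAAT stood in both Dcx promoters and at the first start of Dclk1 (37.4% of all promoters). In Dcx these were different sites, 196 bases before 1 RefSeq start and, on the opposite strand, 8 bases past the other. GGGCGG, the GC box bound by Sp1, stood in those of Dclk2, Dync1h1, Ndel1 and Ywhae and in 2 of Pafah1b2 (35.7%). The E-box CAGCTG stood in 1 promoter of Pafah1b2 (16.3%), and the E-box CAGATG in none (17.2%). These are letter matches and show no binding.

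Dcx had 2 main coding transcripts. Dcx-203 held 46.4% and 43.1% of Dcx TPM and Dcx-201 held 38.3% and 40.7%. They differ by the 3 bases GTA shown above. The 18-base shorter Dcx-204 held 7.3% and 5.8%, and Dcx-206, a transcript with a retained intron, 6.4% and 8.6%. By expected counts the order of the main forms turned over, with Dcx-201 at 61.5% and 63.9% and Dcx-203 at 33.1% and 30.1%. Dcx-201 is 9074 nucleotides long and Dcx-203 is 4095, so which of them leads depends on whether reads are divided by length.

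Dclk2 was spread over more forms. Dclk2-209 held 33.6% and 39.3% of its TPM and Dclk2-201 held 35.3% and 27.6%, so their order differed between the libraries. Dclk2-202 held 14.9% and 12.8%, and Dclk2-204, annotated as a target of nonsense-mediated decay, 14.2% and 12.9%. No doublecortin-only form of Dclk2 was among the forms above 10%. The coding sequence of Dclk2-209 was 71.0% identical to that of Dclk1-201 over 2167 aligned bases.

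**Figure D2:**
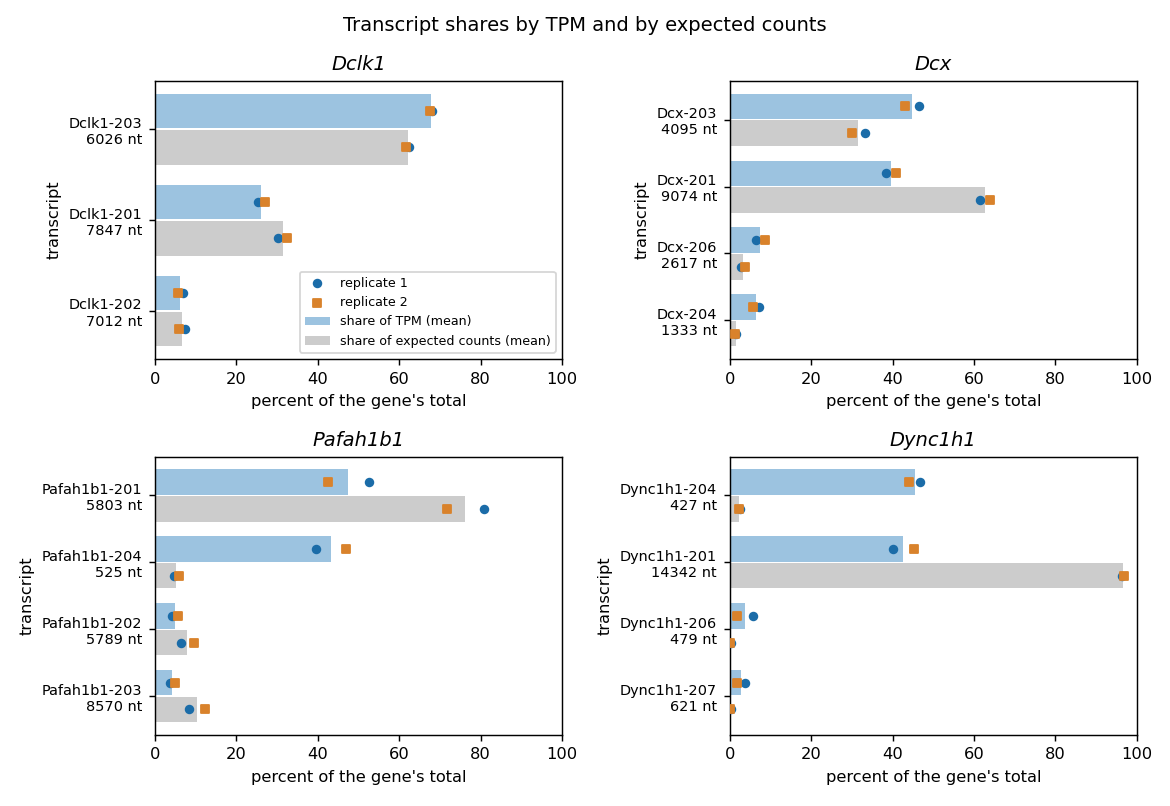
Transcript shares of Dclk1, Dcx, Pafah1b1 and Dync1h1 as percent of the gene's TPM (blue bars, means) and of its expected counts (grey bars, means), with replicate 1 as circles and replicate 2 as squares and up to 4 transcripts per gene with their lengths. Dclk1-203 leads on both measures, whereas the 427-nucleotide Dync1h1-204 holds 46.7% and 44.1% of TPM and 2.59% and 2.18% of counts.

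The LIS1 group encodes the brain platelet-activating factor acetylhydrolase, in which LIS1 is the regulatory subunit and PAFAH1B2 and PAFAH1B3 are the catalytic ones. Pafah1b3 (ENSMUSG00000005447, chr7:25295049-25297986, minus strand) measured 255 TPM in replicate 1 and 237 in replicate 2 (246 ± 12.9, SD, n = 2). Pafah1b2 (ENSMUSG00000003131, chr9:45962859-46012690, minus strand) measured 180 and 186 TPM (183 ± 4.81). Pafah1b1 (ENSMUSG00000020745, chr11:74673949-74724670, minus strand) measured 70.0 and 69.3 TPM (69.6 ± 0.516). Both catalytic genes lay far above the LIS1 gene in each library, and the 3 ranges did not overlap. The catalytic genes together were 6.16 ± 0.0707 times the level of Pafah1b1. Over complete coding transcripts alone that ratio was 10.7 ± 1.23, and in expected counts, which are not divided by length, it was 3.80 ± 0.325, with Pafah1b3 (2814 and 3717) below Pafah1b1 (3980 and 5166).

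Pafah1b3 exceeded Pafah1b2 by 1.42 times in replicate 1 and 1.27 times in replicate 2 (1.35 ± 0.106). The ratio was 1.11 over complete coding transcripts, and in expected counts the order turned over, at 0.232. Their coding sequences were 65.5% identical over 684 aligned bases and the expected counts of both were whole in both libraries, as were those of all 10 members and of 73.3% of detected protein-coding genes. Part of the Pafah1b3 level came from forms other than the full-length one. Pafah1b3-201 held 45.1% and 41.1% of its TPM. Pafah1b3-202, whose 540 coding bases are all part of the 696 of Pafah1b3-201, held 35.2% and 40.0%. Pafah1b3-204, annotated without its coding end, held 12.5% and 12.5%. Pafah1b2-201 was the 1 transcript of its gene in the tables, at a length of 4241 nucleotides against 6873 in GENCODE M21, so its level rests on the shorter model.

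The LIS1 gene itself rested on a short fragment for much of its TPM. Pafah1b1-201, the complete coding form of 5803 nucleotides, held 36.8 and 29.4 TPM, 52.6% and 42.4% of the gene. Pafah1b1-204, a 525-nucleotide model annotated without its coding end, held 27.7 and 32.4 TPM, 39.5% and 46.8%. In expected counts the same fragment held 4.53% and 5.91%. Over complete coding transcripts alone, Pafah1b1 measured 39.7 and 33.3 TPM (36.5 ± 4.57), so the steadiness of the gene total (70.0 and 69.3) was not found in its coding part. The credibility interval that the authors deposited with the gene estimate ran from 61.4 to 74.1 TPM in replicate 1, wider than that of Dcx (59.4 to 64.1) at a similar level.

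Genes that make or break down platelet-activating factor outside this complex were mostly low. Of 5 listed, 4 were detected. Lpcat1, a lysophosphatidylcholine acyltransferase, measured 52.7 and 50.2 TPM. Pafah2, a related intracellular acetylhydrolase, measured 5.72 and 6.96 TPM. Lpcat2 and Pla2g7, the secreted acetylhydrolase, lay between 2.26 and 2.97 TPM. The receptor gene Ptafr was at 0.20 and 0.32 TPM.

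Among the dynein members, the motor's heavy chain was more abundant than its adaptor gene Ndel1. Dync1h1 (ENSMUSG00000018707, chr12:110601452-110666945, plus strand) encodes the heavy chain of cytoplasmic dynein 1, and measured 76.8 TPM in replicate 1 and 73.7 in replicate 2 (75.3 ± 2.21, SD, n = 2). Ndel1 (ENSMUSG00000018736, chr11:68821434-68871858, minus strand) encodes the coiled-coil protein that links LIS1 to dynein, and measured 40.5 and 37.1 TPM (38.8 ± 2.45). The ranges did not overlap. Much of the Dync1h1 TPM, however, belonged to a fragment.

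Dync1h1-204, a 427-nucleotide transcript with a retained intron, held 46.7% and 44.1% of the gene's TPM but 2.59% and 2.18% of its expected counts. The complete transcript Dync1h1-201, of 14342 nucleotides and 4644 codons, held 40.0% and 45.2% of TPM (30.7 and 33.3 TPM) and 96.3% and 97.0% of counts. Over complete coding transcripts Dync1h1 measured 32.0 ± 1.84 TPM and Ndel1 36.3 ± 2.83, and the order of these members then turned over. Their ranges on that scale, 30.7 to 33.3 and 34.3 to 38.3 TPM, did not overlap either. Ndel1 was simpler, with Ndel1-201 at 85.9% and 82.3% of its TPM.

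Ndel1 stood well below its paralog. Nde1, which encodes the other LIS1-binding coiled-coil protein and is needed by dividing progenitors, measured 157 and 158 TPM. Ndel1 was 0.258 of that in replicate 1 and 0.234 in replicate 2 (0.246 ± 0.0167), and the paralog was thus 4.08 ± 0.278 times as abundant. The pair summed to 197 ± 1.68 TPM, 64.3% of 1009 aligned coding bases were identical between them, and the counts of both were whole. Nde1 shares 77 exon bases on the other strand with Marf1 at 10.4 and 9.67 TPM, and whether reads were counted by strand is not given in the sources.

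The rest of the motor was expressed throughout. All 13 other dynein 1 subunit genes and all 9 dynactin genes were detected. The light chain Dynll1 was highest, at 1207 and 1193 TPM. Dynlt1b measured 396 and 383 TPM and Dynlt1f 182 and 191, but these belong to a cluster of near-identical copies whose reads were divided among them, so their single values are uncertain. The light chain Dynlrb1 measured 365 and 362 TPM.

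Intermediate chains differed sharply. Dync1i2, the widely expressed chain, measured 124 and 127 TPM, and Dync1i1, known as the neuronal one, 1.15 and 1.03 TPM, a ratio of 116 ± 11.5. Within dynactin, the complex that makes dynein processive, the highest were Actr1a (182 and 160 TPM), the subunit of its filament, and Dctn2 (147 and 140). Dctn3 and Dctn5 followed at 112 and 106 TPM and at 107 and 99.95 TPM. Dctn1, which contacts the motor, was 1.07 ± 0.00242 times the gene total of Dync1h1.

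Of 13 listed dynein adaptors and cofactors, 11 were detected in both libraries. Nudc, a chaperone first known from nuclear migration, measured 280 and 289 TPM, and its relatives Nudcd2 and Nudcd3 measured 152 and 172 TPM and 43.7 and 37.9 TPM. Disc1 (0.82 and 1.01 TPM) and Rilp (0.22 and 0.55 TPM) were the exceptions. Dync2h1, the heavy chain of the ciliary dynein, measured 18.3 and 22.1 TPM, so that Dync1h1 was 4.21 times its level in replicate 1 and 3.34 times in replicate 2 (3.77 ± 0.615). Over complete coding transcripts that ratio was 1.93.

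Ywhae (ENSMUSG00000020849, chr11:75732869-75765845, plus strand) encodes 14-3-3 epsilon, a phosphoprotein-binding adaptor. It measured 1154 TPM in replicate 1 and 1240 in replicate 2 (1197 ± 60.7, SD, n = 2), and 99.7% and 99.0% of that was Ywhae-201. It led its family in TPM in each library, while in expected counts it lay below Ywhaz, at a ratio of 0.850. Ywhaq measured 1047 and 1107 TPM and Ywhaz 930 and 1004 TPM. The range of Ywhaq overlapped neither that of Ywhaz nor that of Ywhae. Within a library Ywhae was 1.11 ± 0.0129 times Ywhaq and 1.24 ± 0.00450 times Ywhaz. Unlike those of Ywhae, the expected counts of Ywhaq and Ywhaz were not all whole, so some of their reads were divided with other genes. What this did to the ratios was not tested.

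A step separated these 3 from the rest of the family. Ywhah measured 356 and 346 TPM, Ywhab 250 and 261 TPM and Ywhag 104 and 90.0 TPM. Sfn, the epithelial member, measured 12.4 and 9.2 TPM. Ywhae supplied 30.3% ± 0.431 of the summed TPM of the family.

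Cdk5 (ENSMUSG00000028969, chr5:24418241-24423530, minus strand) encodes a kinase that is inactive until it binds a neuronal activator. It measured 28.4 TPM in replicate 1 and 25.4 in replicate 2 (26.9 ± 2.13, SD, n = 2), all of it from Cdk5-201, its 1 transcript in the tables. Cdk5r1, which encodes the activator p35, measured 14.5 and 12.4 TPM. Cdk5r2, which encodes p39, measured 1.11 and 0.95 TPM from 46 and 57 reads. In TPM the kinase was therefore above both activators in each library, by 2.00 ± 0.0647 times for Cdk5r1 and 26.1 ± 0.806 times for Cdk5r2. In expected counts the ratio to Cdk5r1 was 0.992 in replicate 1 and 1.02 in replicate 2. Between the activators, Cdk5r1 was 13.1 ± 0.0201 times Cdk5r2.

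Among the 8 listed genes of the Cdk5 axis, 7 were detected in both libraries. Ptk2, the focal adhesion kinase that CDK5 phosphorylates, measured 66.6 and 65.8 TPM. Dab1, the adaptor of reelin signalling, measured 36.3 and 40.1 TPM. Cdkn1b, a cell cycle inhibitor stabilised by CDK5 in migrating neurons, measured 20.7 and 21.6 TPM, and Ablim1, an actin-binding protein, 15.7 and 13.4 TPM.

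**Figure D3:**
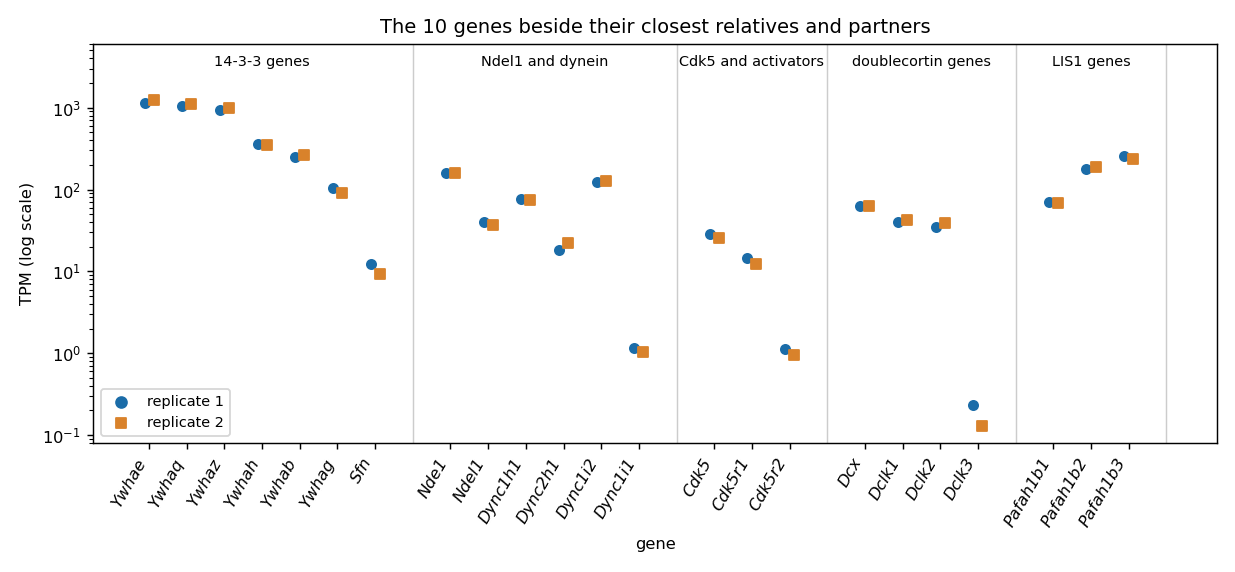
TPM in replicate 1 (circles) and replicate 2 (squares) on a log axis for the 10 genes and their closest relatives and partners, in 5 groups. Ywhae leads the 14-3-3 family, Ndel1 lies below Nde1, and Dync1i1, Cdk5r2 and Dclk3 lie at or below 1.15 TPM.

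Set in order of the gene totals, the members ran Ywhae, Pafah1b3, Pafah1b2, Dync1h1, Pafah1b1, Dcx, Dclk1, Ndel1, Dclk2 and Cdk5. Ndel1 overlapped both of its neighbours in range, Dclk1 (40.0 to 42.7 against 37.1 to 40.5 TPM) and Dclk2 (34.9 to 38.7 TPM), so the places of these 3 are not separated beyond their spread. No other neighbours overlapped in TPM, but the credibility intervals deposited by the authors did so in both libraries for Dync1h1 (69.1 to 83.7 TPM in replicate 1) and Pafah1b1 (61.4 to 74.1), and for Pafah1b1 and Dcx (59.4 to 64.1). Counted over complete coding transcripts, Dcx (57.5 TPM) came directly after the 3 highest and Dclk1 (41.4) after it. Pafah1b1 (36.5), Ndel1 (36.3), Dync1h1 (32.0), Dclk2 (30.7) and Cdk5 (26.9) followed, and each of these overlapped the next in range except Dclk2 and Cdk5, and Ndel1 and Dync1h1. On this scale the doublecortin gene thus stood above the LIS1 and dynein heavy chain genes, while on gene totals it stood below both.

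Between the 2 pools these genes differed little in size of change, as did most protein-coding genes of like depth. For none of the 10 did 1 library stand 25% or more above the other, beside 2.11% of the 8574 protein-coding genes with 1000 or more counts summed, a count that all 10 exceeded. The log2 ratio ran from -0.16 for Cdk5 (847 and 1095 reads, 95% interval -0.29 to -0.03) to 0.11 for Dync1h1 (6948 and 10823 reads, 0.06 to 0.15). Dcx was nearest to equal at 0.01 (5453 and 7938 reads, -0.04 to 0.06). The intervals cover counting error only. Those of 8 of the 10 left out 0, beside 45.9% of protein-coding genes with 1000 or more counts summed, a share that depends on how many reads each gene has. The spread over genes was wider than counting, with an SD of 0.14 for the 7436 genes with 1000 to 10000 counts and 0.097 for the 1138 with 10000 or more. Against it, the lower values of Cdk5, Pafah1b1 (-0.16) and Ndel1 (-0.16) lay just past 1 SD of the first class, and the higher value of Dync1h1 lay just past 1 SD of the second.

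The direction in counts was mixed among the 10 genes, and any link to their roles was not tested. The 3 doublecortin genes, Pafah1b2, Dync1h1 and Ywhae were higher in replicate 2 by scaled counts, and Pafah1b1, Pafah1b3, Ndel1 and Cdk5 were lower. The 95% counting intervals of Dcx (-0.04 to 0.06) and Dclk2 (-0.03 to 0.12) held 0, so their signs are not settled. For Dcx and Dync1h1 the sign depended on the measure, since their TPM were lower in replicate 2. In the listed partners, no dynein subunit, dynactin, Cdk5 axis or doublecortin partner gene was 25% or more apart, and 1 of 6 other 14-3-3 genes was (Sfn, lower in replicate 2), beside 18.8% of protein-coding genes with 10 or more counts summed. Of these 43 listed genes, 38 had 1000 or more counts and 0 of the 38 passed the limit, near the 2.11% of all genes at that depth. Of the dynein adaptors Rilp was higher and Bicdl1 lower in replicate 2 by that limit, of the genes for platelet-activating factor Pafah2 and Ptafr were higher, and 3 of the 4 distant doublecortin genes with 10 or more counts were lower. The highest of these by count, Pafah2 and Bicdl1, rested on 243 and 443 and on 244 and 279 reads. With 2 libraries, likeness of pattern to other genes could not be measured, so none is named.

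**Figure D4:**
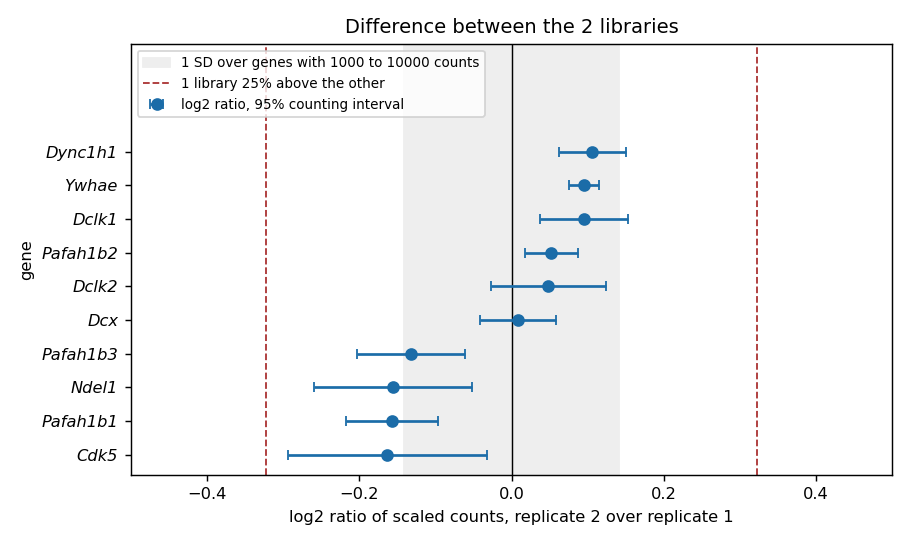
Log2 ratio of scaled counts, replicate 2 over replicate 1, for each gene, with 95% intervals for counting error, 1 SD over genes of 1000 to 10000 counts (grey band, 0.14) and the limits at which 1 library is 25% above the other (dashed). All points lie between -0.16 and 0.11, inside the dashed lines.

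Pafah1b1 and Ywhae lie on chromosome 11, 1008.2 kb apart, and the human counterparts of both are lost together in the deletions of Miller-Dieker lissencephaly. Between them lie 24 measured protein-coding genes, with a median of 15.2 TPM over all 24. Of these, 20 (83.3%) were detected in both libraries, beside 58.6% of all protein-coding genes. Rpa1, a subunit of the single-stranded DNA-binding complex of replication, measured 110 and 115 TPM. Crk, an adaptor of tyrosine kinase signalling that includes reelin signalling, measured 111 and 113 TPM. Prpf8, a core spliceosome protein, measured 105 and 105 TPM, and Pitpna, a phosphatidylinositol transfer protein, 69.4 and 62.3 TPM. Ywhae was 10.6 times the highest of them.

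**Figure D5:**
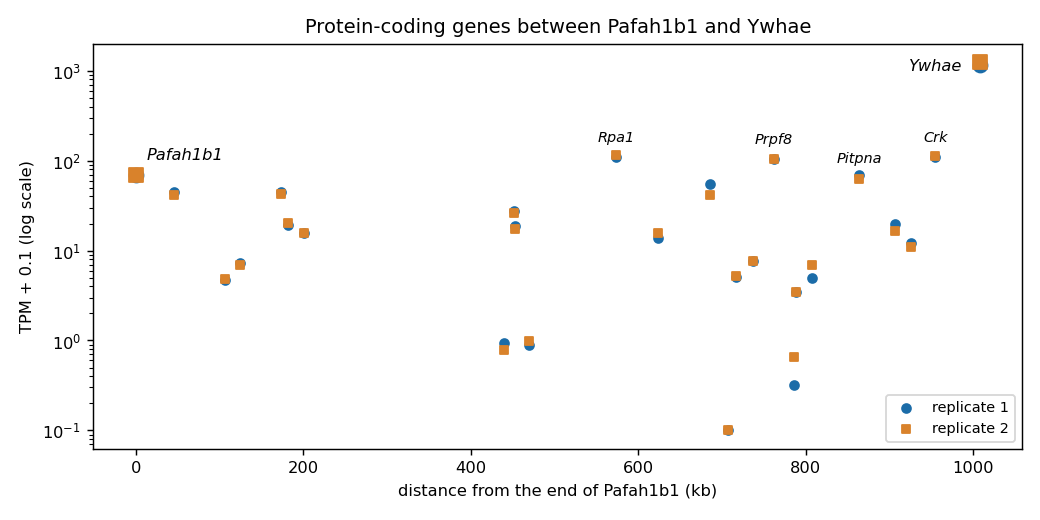
TPM + 0.1 on a log axis of the 24 protein-coding genes between Pafah1b1 and Ywhae against their distance from the end of Pafah1b1 in kb, with replicate 1 as circles and replicate 2 as squares. Rpa1, Crk and Prpf8 lie at 105 to 115 TPM, below Ywhae at 1154 and 1240 TPM.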

How the data were processed

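Total RNA was sequenced from 2 libraries of 1 group, labelled biological replicates 1 and 2. The deposited expected counts are the authors' estimates per gene and transcript and need not be whole. The TPM deposited by the authors are scaled by length over all entries, and the deposited FPKM by length and depth. Posterior mean TPM and credibility bounds of unstated level are deposited beside them, per the file headers. Per the deposited notes, mm10 and GENCODE M4 were used. The aligner, quantifier and strand setting were not given in the sources used here.

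All 10 genes and the partner and marker lists were chosen with earlier results of these data known. Named genes were the members, those of each planned ratio, the 4 highest of each list, transcripts with 10% or more of their gene's TPM and the 4 highest genes between Pafah1b1 and Ywhae. Other named genes were chosen after their values were seen. Names, coordinates and coding sequences came from GENCODE M21 (GRCm38), which matched 42462 of 43346 identifiers. Promoters came from a table of RefSeq sequences (GRCm38.p6), and those of Cdk5 and Pafah1b3 were not analysed here. The 26248 numeric entries and 97 spike-ins were left out of library sizes. Annotated genes summed to 23165259 and 33597027 expected counts, and spike-ins took 5.66% and 5.49% of counts and 13.0% and 12.7% of TPM. Counts within 0.005 of a whole number were taken as whole (all 10 members, and 73.3% of detected protein-coding genes).

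Expected counts were rounded, and libraries were scaled by TMM in edgeR 4.0.16 (R 4.3.3) over genes with 10 or more counts summed. Log2 ratios used a prior of 0.5 counts and exact binomial intervals, and the step was tested on simulated data. Coding sequences were aligned globally, and identity was taken over aligned bases. DESeq2 1.42.0 size factors, spike-in and total scaling, other thresholds, estimates and pseudocounts, and each library alone were alternatives. No p-value is given, since 1 group allows no test, and the SD of 2 pools is itself imprecise.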

Additional observations from a re-analysis of the deposited data

How the results depend on the processing

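All 10 genes remained detected by posterior mean TPM and FPKM, and none was 25% or more apart under any of the 5 other scalings. That all 10 were detected at 0.5 and 5 TPM and none was 1.5-fold apart follows from the main results. The single-library ratios are the 2 values averaged for each ratio above, so they are no separate check. They ran from 1.27 to 1.42 for Pafah1b3 over Pafah1b2 and from 0.628 to 0.680 for Dclk1 over Dcx. For Ndel1 over Nde1 they ran from 0.234 to 0.258, and for Ywhae over Ywhaz from 1.23 to 1.24. Those of Cdk5 over Cdk5r1 were 1.96 to 2.05, and those of Dync1h1 over Dync2h1 were 3.34 to 4.21. Expected counts, which by construction are not divided by transcript length, turned Pafah1b3 over Pafah1b2 to 0.232 and Ywhae over Ywhaz to 0.850, and moved Dclk1 over Dcx to 0.747 and Cdk5 over Cdk5r1 to 1.01. By TPM, 5 members had a leading transcript with 50% or more of the gene (5 and 6 on single libraries), and by expected counts 8 did. Complete coding transcripts alone, an alternative chosen after seeing the data, gave 1.11 for Pafah1b3 over Pafah1b2, 0.720 for Dclk1 over Dcx, 2.11 for Cdk5 over Cdk5r1 and 1.93 for Dync1h1 over Dync2h1. A pseudocount of 1 TPM gave 1.93 for Cdk5 over Cdk5r1. Rescaling TPM without spike-ins multiplied every member by 1.15, and posterior means were 0.969 to 1.00 of the deposited TPM. No paired analysis was possible because there was a single group. Depth limits Cdk5r2, Dcdc2b and the other genes under 100 counts most, and what the SD of 2 pools can show is limited by their number.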

Other observations

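Genes that carry the nuclear envelope's link to the motor were detected in most cases, 8 of 10 in the list. Syne2, the nesprin that anchors nuclei to dynein and kinesin, measured 91.7 and 99.2 TPM in replicates 1 and 2, while its relatives Syne1 (1.09 and 0.81 TPM) and Syne3 (0.14 and 0.10 TPM) were near the floor. Tor1a, an ATPase of the nuclear envelope, measured 76.8 and 68.3 TPM. Lmnb1, a B-type lamin needed in neuronal migration, measured 68.4 and 57.4 TPM, and the A-type lamin gene Lmna 16.2 and 15.6 TPM. Sun1, which holds nesprins in the envelope, measured 44.4 and 40.0 TPM and Sun2 4.63 and 3.34 TPM. Lmnb1, Sun2, Syne1 and Syne3 were lower in replicate 2 by scaled counts, with replicate 1 at least 25% above it. These were 4 of the 10, beside 18.8% of protein-coding genes with 10 or more counts summed past that limit in either direction. Lmnb1 had 2714 and 3139 counts, Sun2 201 and 201, Syne1 84 and 90 and Syne3 11 and 12. The share past the limit was 2.42% at 1000 to 10000 counts summed, 25.2% at 100 to 1000 and 66.8% at 10 to 100. Nesprin 2 and SUN1 transcripts were thus the more abundant of their families in both libraries.

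All 17 other listed genes of cortical malformation were detected in both libraries. Tuba1a, the main alpha-tubulin of new neurons, was highest at 5158 and 4479 TPM. Map1b, a microtubule-associated protein of growing axons, measured 303 and 320 TPM, and Flna, the actin cross-linker lost in periventricular heterotopia, 191 and 197 TPM. Tubb2b, a neuronal beta-tubulin, measured 260 and 215 TPM from counts that were partly divided with other genes. Reln, the ligand made by the earliest cortical neurons, measured 8.91 and 11.1 TPM, and its receptor genes Lrp8 and Vldlr 28.7 and 26.6 TPM and 10.1 and 8.36 TPM.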
